A study of Mus musculus with 10 samples.

Results

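The genes described here encode subunits of the oxidative phosphorylation complexes from the nuclear genome. They were taken by name from the deposited expression table: every gene whose name starts with Nduf followed by a, b, c, s or v and a number, with Uqcr, with Cox and a number from 4 to 8 followed by a, b or c, or with Atp5 followed by a letter from a to o, together with Sdha, Sdhb, Sdhc and Sdhd. The name of 1 pseudogene was left out. This gave 81 of the 37447 genes of the table: 37 of complex I, 4 of complex II, 8 of complex III, 16 of complex IV and 16 of complex V. The choice uses names only and no measured value, though it was made with earlier results of these data known. A few subunits with other names (Ndufab1, Cyc1, Usmg5) fall outside the pattern and are given with the related genes further on, and Cox4i1 was not analysed here.

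The RNA came from microglia, the resident macrophages of the brain, of the brainstem of mice aged 6 weeks. The series compared laser capture with flow sorting as ways to isolate these cells, and mice whose microglia express GFP with wild-type mice. There were 4 libraries of GFP expressing microglia captured from sections by laser (LCM_GFP, 3 females and 1 male), 3 of GFP-positive cells isolated with a flow sorter (FACS_GFP, 2 females and 1 male) and 3 of flow-sorted wild-type C57BL/6 microglia (FACS_WT, 3 males). The labels used here do not give the strain of the GFP mice or the promoter that drives GFP. Sorted cells were dissociated, enriched on Percoll and lysed in TRIzol, whereas the tissue for laser capture was fixed briefly with paraformaldehyde, frozen and extracted with proteinase K and acid phenol, so the isolation method cannot be told apart from fixation and extraction. Every library went through Ovation amplification of the cDNA. The labels call the libraries biological replicates and do not say whether each is 1 mouse, so the p-values measure the spread between these libraries. Values are FPKM, fragments scaled to transcript length and to the number of mapped fragments, so that levels can be compared between genes.

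The respiratory chain sits in the inner mitochondrial membrane. Complex I (NADH dehydrogenase) and complex II (succinate dehydrogenase, also an enzyme of the citric acid cycle) pass electrons to ubiquinone, complex III hands them on to cytochrome c, and complex IV (cytochrome c oxidase) reduces oxygen. Complexes I, III and IV pump protons, and complex V, the ATP synthase, uses the gradient to make ATP. Most subunits are nuclear genes, while a small core of complexes I, III, IV and V is encoded by mitochondrial DNA. Neurons depend strongly on this pathway, and microglia are known to shift between it and glycolysis with their state.

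The labelled cell type was checked against defining markers. All 10 microglia markers were detected in every library, with a summed FPKM of 1543 to 3143 in the laser-captured libraries, 4519 to 5789 in sorted GFP and 5582 to 7617 in sorted wild-type libraries. Markers of neighbouring cells stood far higher in the laser-captured libraries. Neuron markers summed to 1005 to 2377 FPKM there, against 4.3 to 13.6 in sorted GFP and 2.8 to 3.9 in sorted wild-type libraries. The corresponding sums were 2682 to 7567, 21.2 to 26.5 and 23.5 to 32.8 for oligodendrocytes, 652 to 1330.5, 30.5 to 34.1 and 22.7 to 26.4 for astrocytes, and 102.4 to 298.5, 19.8 to 25.1 and 15.3 to 22.9 for endothelium. Of the 10 microglia markers 6 were called lower against sorted GFP with the test described below, against 19.6% of all genes. Cldn5, a defining endothelial gene, was listed at 0 in all sorted libraries, and Syt1 of neurons, Mal and Ugt8a of oligodendrocytes, Gjb6 of astrocytes and Slco1a4 of endothelium were at 0 in all sorted wild-type libraries. Red cell genes differed within the laser-captured group, with the embryonic globin Hbb-y at 902 and 439 FPKM in replicates 1 and 3 and at 0.10 and 0.07 in replicates 2 and 4. In such bulk samples fewer cells of a type and less RNA per cell cannot be told apart, and the part of these other cells in the results below was not tested.

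Nuclear genes of the respiratory chain are classical targets of the transcription factors NRF1, GABP (also called NRF2) and YY1, so the upstream sequences of 4 members on which the results turn are shown before their levels. Cox8a had the largest increase in laser-captured libraries, Ndufa9 the largest decrease, and Cox6a1 and Sdhd moved in opposite directions against sorted wild type while both carry letters matching NRF1 and GABP. The sequences are the 250 bases before the RefSeq start of each gene in mouse build GRCm38.p6, 5′ to 3′ on the gene's strand, with matches to the searched letters in capitals.
Cox8a, chr19:7217617-7217866, minus strand: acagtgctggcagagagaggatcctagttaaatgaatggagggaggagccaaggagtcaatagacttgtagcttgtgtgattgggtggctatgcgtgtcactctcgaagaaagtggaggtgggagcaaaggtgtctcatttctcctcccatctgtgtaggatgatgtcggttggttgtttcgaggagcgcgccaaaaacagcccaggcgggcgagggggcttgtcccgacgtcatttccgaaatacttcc
Cox6a1, chr5:115348959-115349208, minus strand: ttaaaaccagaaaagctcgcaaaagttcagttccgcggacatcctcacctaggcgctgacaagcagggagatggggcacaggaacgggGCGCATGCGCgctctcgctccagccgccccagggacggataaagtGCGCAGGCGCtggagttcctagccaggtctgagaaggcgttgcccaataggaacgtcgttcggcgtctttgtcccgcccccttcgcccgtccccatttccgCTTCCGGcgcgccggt
Sdhd, chr9:50603850-50604099, minus strand: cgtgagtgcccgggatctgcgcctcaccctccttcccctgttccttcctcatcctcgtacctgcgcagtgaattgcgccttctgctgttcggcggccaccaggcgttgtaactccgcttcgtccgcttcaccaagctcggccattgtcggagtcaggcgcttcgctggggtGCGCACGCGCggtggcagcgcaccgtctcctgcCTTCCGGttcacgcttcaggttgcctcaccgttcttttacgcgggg
Ndufa9, chr6:126849145-126849394, minus strand: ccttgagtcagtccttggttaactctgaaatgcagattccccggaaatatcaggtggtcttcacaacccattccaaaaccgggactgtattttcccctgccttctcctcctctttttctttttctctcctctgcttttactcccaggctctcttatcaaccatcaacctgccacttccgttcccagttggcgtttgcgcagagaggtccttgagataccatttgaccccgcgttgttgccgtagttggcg

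The letters searched on both strands were GCGCA and GCGC with any 1 base between them for NRF1, CCGGAAG for GABP and AAGATGGCG for YY1, none of which contains another. RefSeq held 71 windows of 300 bases (250 before to 50 after a start) for 66 of the 81 members. NRF1 letters occurred in 25.4% of them against 4.60% of all 32851 windows, GABP letters in 22.5% against 8.86%, and YY1 letters in 9.86% against 1.40%. Any of the 3 was present in 49.3% of the members' windows and in 13.6% of all windows. In the sequences shown, Cox6a1 has NRF1 letters 162 and 117 bases before its start and GABP letters 16 bases before it, and Sdhd has NRF1 letters at 79 and GABP letters at 46 bases before its start. Neither Cox8a nor Ndufa9 holds these letters in the 250 bases shown, although both have a match in the first 50 bases after the start. A match is a description of letters and does not show that a factor binds.

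The subunit genes together took a larger share of the measured RNA in laser-captured than in sorted microglia. Their summed FPKM was 6623, 7066, 7157 and 8163 in the 4 laser-captured libraries, 3451, 3094 and 4092 in sorted GFP and 3379, 3320 and 4637 in sorted wild-type libraries, so the laser-captured libraries all stood above every sorted one. As means these were 7252 ± 650 (SD, n = 4), 3545 ± 506 (SD, n = 3) and 3779 ± 744 (SD, n = 3), or 1.55%, 0.742% and 0.825% of all FPKM. The ratio of the laser-captured to the sorted GFP mean was 2.05 for all members, 2.91 for complex IV, 2.23 for complex V, 1.72 for complex III, 1.70 for complex I and 1.11 for complex II.

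**Figure D1:**
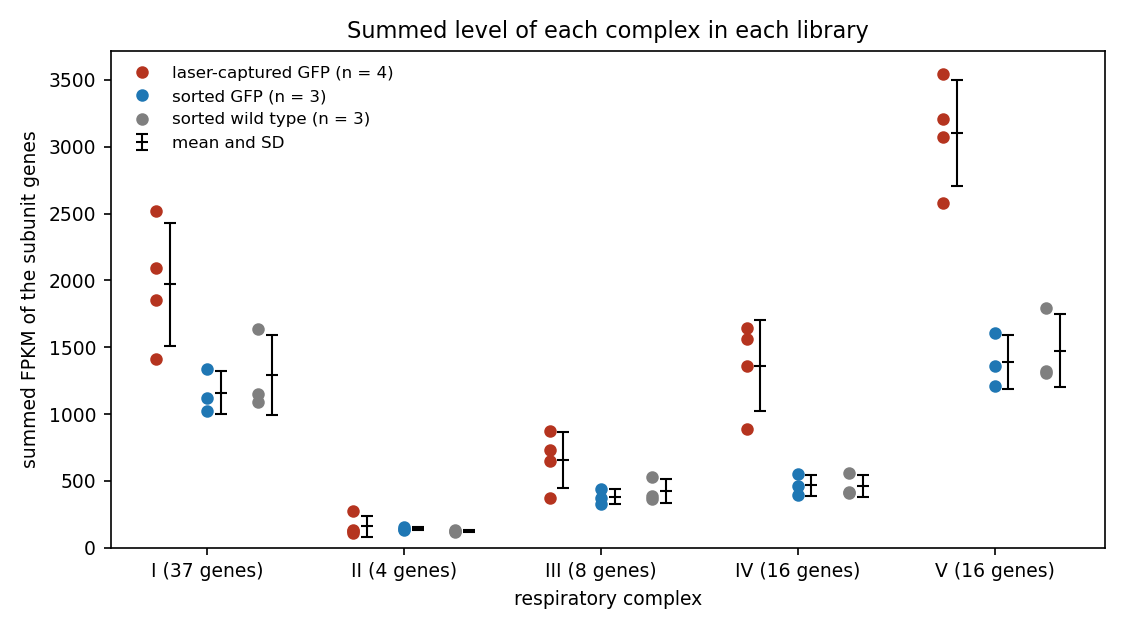
Summed FPKM of the subunit genes of each respiratory complex (y axis) in each library (points), with mean and SD for each group of libraries. For complexes IV and V the 4 laser-captured libraries stand above all 6 sorted ones, whereas for complex II only laser-captured replicate 4, at 274 FPKM, stands apart.

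Complex IV summed to 888, 1646, 1360 and 1561 FPKM in the laser-captured libraries and to 392 to 558 in the 6 sorted libraries, with no overlap. Complex V likewise did not overlap, at 2583 to 3545 against 1210 to 1791 FPKM. Complexes I and III overlapped: complex I reached 1634 FPKM in sorted wild-type replicate 3 and was 1412 in laser-captured replicate 1, and complex III was 372 in laser-captured replicate 3. Atp5b, the catalytic beta subunit of ATP synthase, was the most abundant member in all 3 groups and made up 16.9% ± 1.43 (SD, n = 4) of the members' sum in laser-captured, 9.44% ± 0.641 (SD, n = 3) in sorted GFP and 7.86% ± 0.760 (SD, n = 3) in sorted wild-type libraries.

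The first comparison asked how isolation by laser capture differed from sorting within GFP mice. Of the 81 members 75 passed the filter on low values (at least 1 FPKM in at least 3 of the compared libraries). The other 6 were Ndufa4l2, Cox7a1, Cox7b2, Cox8b, Cox8c and Atp5l2. With limma on log2(FPKM + 1) and adjusted p-values (Benjamini-Hochberg over all 13403 genes tested), 12 members were higher in laser-captured libraries, or 16.0%, against 12.5% of all genes, and 1 was lower, or 1.33%, against 19.6% of all genes (32.1% in either direction). The median log2 change was 0.50 over the members and -0.60 over all genes tested, and 54 of the 75 members (72.0%) lay above 0 against 34.3% of all genes. By complex the median was 1.35 for IV, 0.83 for III, 0.58 for V, 0.31 for I and -0.17 for II. Without laser-captured replicate 4 it was 0.12 for I and -0.59 for II, without replicate 2 it was 0.43 for III and 0.08 for II, and for II it turned to 0.37 with median ratio scaling and 0.08 with quantile normalization. Calls higher were 6 of 12 tested genes in complex IV, 3 of 15 in V, 3 of 36 in I and 0 in II and III. The groups did not overlap in FPKM for 23 members that were higher and 4 that were lower, or 30.7% and 5.33%, against 17.0% and 31.2% of all genes (48.2% in either direction).

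**Figure D2:**
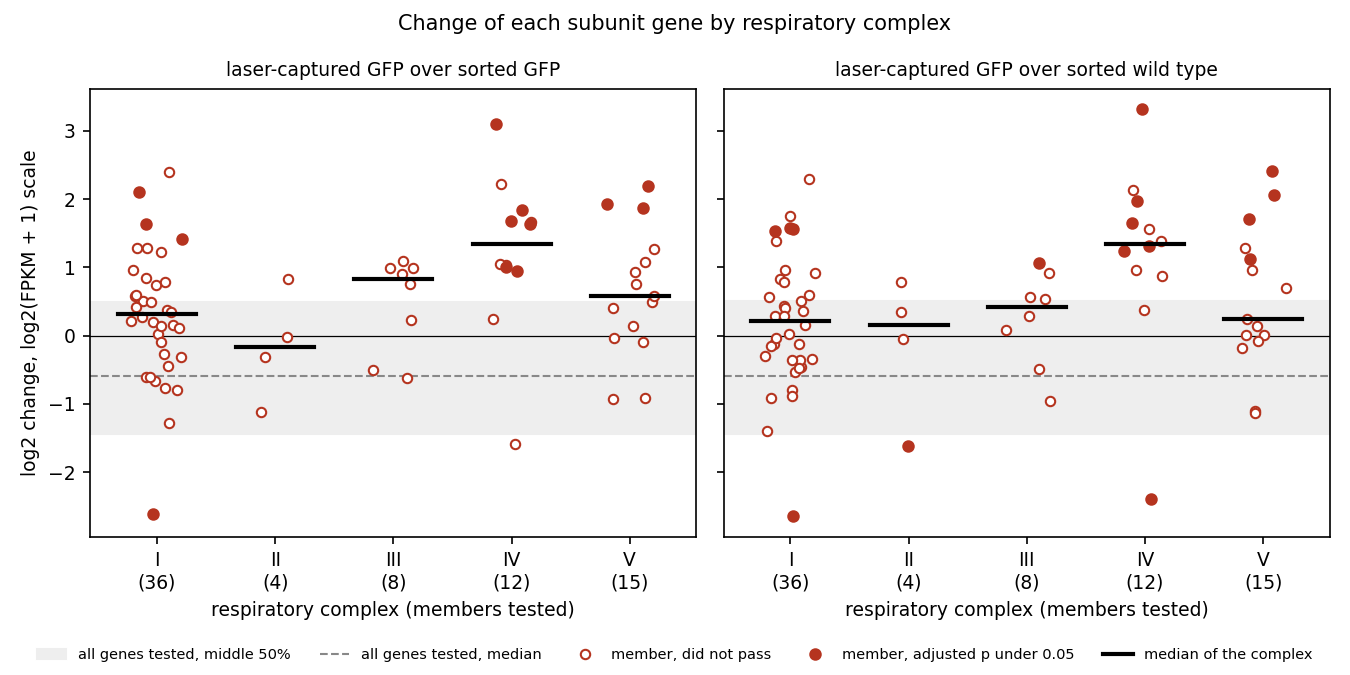
Log2 change of each tested member on the log2(FPKM + 1) scale (y axis) by respiratory complex (x axis), for laser-captured against sorted GFP (left) and sorted wild-type libraries (right), with the median of each complex (black bar), and the median and middle 50% of all genes tested (dashed line and grey band). The complex IV medians, 1.35 in each comparison, lie highest, and the median of all genes lies below 0 at -0.60 and -0.59; the 2 comparisons share the laser-captured libraries.

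The count of calls depended on the libraries and on scaling, with 24 members higher after median ratio scaling and 23 after quantile normalization. The shares of all genes called higher were then 13.9% and 14.2%, and those called lower 10.1% and 13.4%. Without sorted GFP replicate 1, 2 or 3 the number of members higher was 6, 5 and 6 (in complex IV 2, 1 and 2) while the share of all genes called higher fell to 5.81% to 5.97% and that called lower to 2.39% to 2.59%. Without laser-captured replicate 1 the number of members higher was 21, against 15.6% of all genes. Ndufb8, Ndufb9, Cox6a1, Cox5a, Cox7b and Cox7c each lost their call without any 1 of the sorted GFP replicates, Cox5a also without laser-captured replicate 2, 3 or 4, Cox7b without 3 or 4 and Cox7c without 4. Ndufa9 was no longer called without sorted GFP replicate 1 or 3, and without laser-captured replicate 1 or 4 there were 3 members lower. All genes called lower without laser-captured replicate 1 and 4 were 26.1% and 21.2%.

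Complex IV held 6 of the 12 members called higher. Cox8a, the ubiquitous form of the small subunit 8, had levels of 50.5, 99.6, 53.6 and 83.3 FPKM after laser capture, 8.27, 4.81 and 8.86 in sorted GFP and 5.61, 6.45 and 5.99 in sorted wild-type libraries. The groups did not overlap, and the log2 change against sorted GFP was 3.11 (SE 0.42, adjusted p = 0.00122). Cox6b1, a subunit of the side facing the intermembrane space, was at 132, 199.6, 114 and 149 FPKM against 38.0, 33.2 and 50.1 in sorted GFP and 34.4, 32.8 and 42.2 in sorted wild-type libraries. It rose by 1.84 on the log2 scale (SE 0.33, adjusted p = 0.00452), with no overlap. Without sorted GFP replicate 2 its adjusted p was 0.051. Cox6a1, the form of subunit 6a outside heart and muscle, was at 144, 312, 198 and 360.0 FPKM against 71.0, 65.9 and 84.0 and 63.4, 71.4 and 94.3, a log2 change of 1.69 (SE 0.38, adjusted p = 0.0126).

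Cox5a, which lines the matrix side of the enzyme, had values of 85.9, 291, 266 and 179 FPKM in laser-captured, 58.9, 45.7 and 76.6 in sorted GFP and 59.4, 61.3 and 96.2 in sorted wild-type libraries. The lowest laser-captured library lay just above the sorted GFP range and inside the wild-type range, and Cox5a was called only against sorted GFP (log2 change 1.64, adjusted p = 0.0316, against 0.0553 for wild type). Whether the change differed between the 2 comparisons was not tested. The small subunits Cox7b and Cox7c rose by 1.00 (adjusted p = 0.0408) and 0.94 (adjusted p = 0.0326) on the log2 scale. Cox7c was at 162, 211, 163 and 202 FPKM against 92.2, 84.8 and 109 and 71.3, 76.5 and 82.1, and Cox7b at 122, 137, 194 and 202 against 77.5, 71.4 and 90.6 and 59.7, 59.5 and 72.7. Neither overlapped between laser-captured and sorted libraries.

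The other complex IV genes did not pass. Cox6c was at 66.9, 232, 74.0 and 265 FPKM in laser-captured and at 33.6 to 49.3 in sorted GFP libraries (adjusted p = 0.0547), with no overlap. The pattern for Cox5b (64.2 to 108 against 27.7 to 49.2, adjusted p = 0.0600) and Cox7a2 (20.4 to 50.0 against 12.7 to 18.3, adjusted p = 0.0953) was alike, each without overlap. Cox7a2l, known for joining complexes III and IV into supercomplexes, went the other way at 1.40, 1.62, 2.27 and 6.95 FPKM against 9.48, 9.56 and 10.1 in sorted GFP (adjusted p = 0.0527).

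The tissue-specific forms of complex IV subunits were lower in FPKM than their ubiquitous partners in every library except laser-captured replicate 3, where Cox6b2 exceeded Cox6b1. The testis form Cox6b2 was at 0.53, 0, 158 and 24.8 FPKM after laser capture and 0.55 to 1.65 in the sorted ones, so 2 laser-captured libraries were high and the other 2 lay below the sorted range. It did not pass here (adjusted p = 0.331). The heart and muscle form Cox6a2 was at 0.89, 6.28, 26.4 and 0.31 FPKM in laser-captured libraries and at 2.25 to 3.79 in all sorted libraries. Its highest value also came from laser-captured replicate 3. The muscle form Cox7a1 was listed at 0 in all laser-captured libraries and reached at most 0.96 FPKM in the sorted ones, Cox8b reached at most 2.00 FPKM in any library, and Cox7b2 and Cox8c were listed at 0 throughout.

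**Figure D3:**
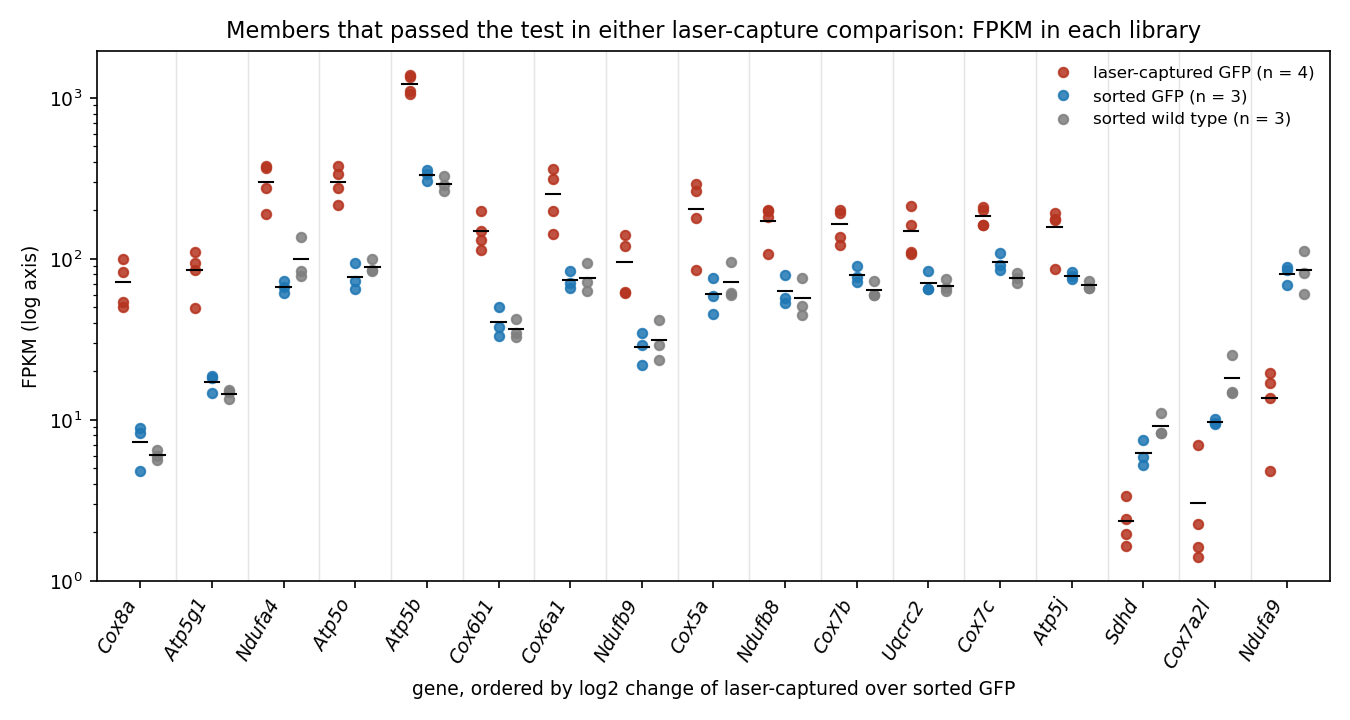
FPKM on a log axis (y axis) of the 17 members that passed the test in at least 1 of the laser-capture comparisons (x axis, ordered by log2 change against sorted GFP), with 1 point for each library and a bar at the group mean. Cox8a at the left stands at 50.5 FPKM or more in laser-captured and at 8.86 or less in sorted libraries, and Ndufa9 at the right is at 19.5 or less against 60.6 or more.

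In complex V the catalytic head, the stalk and the membrane ring each held 1 called gene. Atp5b was at 1059, 1109, 1350 and 1391 FPKM in laser-captured, 335, 306 and 356 in sorted GFP and 266, 286 and 329 in sorted wild-type libraries. The laser-captured values were all more than any sorted value, and the log2 change against sorted GFP was 1.87 (SE 0.22, adjusted p = 0.000685). Its partner in the head, Atp5a1, was at 365, 117, 137 and 86.5 FPKM against 110.3, 104 and 127 in sorted GFP, with replicates 1 and 3 above the sorted GFP range, replicate 2 inside it and replicate 4 below it (adjusted p = 0.550). The other head genes Atp5c1, Atp5d and Atp5e also overlapped between the groups and did not pass.

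Atp5o, which links the head to the peripheral stalk, was at 376, 217, 337 and 277 FPKM against 72.7, 65.0 and 94.8 in sorted GFP and 83.9, 85.3 and 99.7 in sorted wild-type libraries. It rose by 1.94 on the log2 scale (SE 0.31, adjusted p = 0.00269). The interval of Atp5o in the deposited table (mm9, chromosome 16, 91684643 to 91931932) spans 247290 bases and overlaps 7 other genes, against a median of 7284 bases over the members, so its reads may not all be its own. The same limit holds for other members called in either laser-capture comparison. Atp5b overlaps 3 other genes, and Ndufb8, Cox5a, Cox7c, Uqcrc2 and Atp5j overlap 1 each. The stalk genes Atp5h (311, 251, 428 and 290.3 FPKM against 177, 161 and 221) and Atp5j (194, 174, 86.6 and 177 against 78.5, 74.8 and 83.0) did not overlap between the groups but did not pass (adjusted p = 0.0741 and 0.0778).

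The c subunit, which forms the rotating ring, is made from 3 genes that encode the same mature protein with different import signals. Atp5g1 was at 49.3, 85.6, 110.5 and 94.0 FPKM in laser-captured, 18.1, 14.7 and 18.8 in sorted GFP and 14.9, 15.3 and 13.4 in sorted wild-type libraries, and rose by 2.19 on the log2 scale (SE 0.38, adjusted p = 0.00415). Atp5g2 was at 21.0, 34.0, 3.27 and 5.58 FPKM against 22.3, 18.1 and 26.7, with 2 laser-captured libraries below the sorted range (adjusted p = 0.373). Atp5g3, the most abundant of the 3, was at 440.3, 107, 72.8 and 164 FPKM against 112, 83.4 and 116 (adjusted p = 0.466). Within the ring genes the order thus changed: Atp5g1 was the lowest in every sorted library and above Atp5g2 in every laser-captured one. Of the other membrane subunits, Atp5k (300.0, 269, 386 and 131 FPKM against 116, 93.4 and 157) and Atp5l (161, 14.4, 89.1 and 113 against 120.4, 114 and 172) did not pass (adjusted p = 0.0793 and 0.381).

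In complex I, 3 of the 36 tested genes were called higher and 1 lower against sorted GFP, or 8.33% and 2.78%. The shares of all genes were 12.5% higher and 19.6% lower. Ndufa4, named for complex I but now regarded as a subunit of complex IV, was at 275, 189.9, 366 and 376 FPKM in laser-captured, 66.6, 61.3 and 72.7 in sorted GFP and 84.5, 77.8 and 137 in sorted wild-type libraries. No laser-captured library overlapped the sorted ones, and the log2 change against sorted GFP was 2.11 (SE 0.33, adjusted p = 0.00236). Its relative Ndufa4l2, known as a hypoxia-induced form, reached 2.88 FPKM in laser-captured replicate 3 and at most 0.03 in the sorted libraries. Ndufb8 and Ndufb9, accessory subunits of the membrane arm, rose by 1.41 (SE 0.34, adjusted p = 0.0170) and 1.64 (SE 0.42, adjusted p = 0.0210) on the log2 scale. Ndufb8 was at 199, 200.1, 107 and 182 FPKM against 56.8, 53.1 and 79.2, and Ndufb9 at 61.4, 62.2, 140.1 and 121 against 29.3, 21.9 and 34.4, each without overlap.

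Ndufa9, an accessory subunit near the site where ubiquinone binds, was the 1 member called lower. It was at 19.5, 13.7, 16.8 and 4.77 FPKM in laser-captured, 84.8, 69.0 and 88.8 in sorted GFP and 81.3, 60.6 and 112 in sorted wild-type libraries. Every laser-captured library lay below every sorted one, and it fell by 2.62 on the log2 scale (SE 0.50, adjusted p = 0.00666). Ndufa5 had the largest positive log2 change of complex I but did not pass: it was at 26.4, 46.7, 268 and 194 FPKM against 15.0, 15.8 and 18.2 (adjusted p = 0.0511), without overlap and with a wide spread among the laser-captured libraries.

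None of the 7 core genes of complex I, which carry the redox centres, passed, and their median log2 change was 0.27. The abundant core gene Ndufs7 was at 236, 106, 167 and 142 FPKM against 93.0, 95.2 and 122 in sorted GFP (adjusted p = 0.212). Among accessory genes of high level, Ndufa3 (28.7, 277, 178 and 218 FPKM against 81.2, 62.8 and 98.3) and Ndufc2 (14.0, 158, 42.6 and 54.5 against 81.1, 70.8 and 105) overlapped between the groups and did not pass (adjusted p = 0.468 and 0.416). The same held for the accessory genes Ndufs6 (13.1, 46.9, 7.44 and 74.8 FPKM against 31.4, 29.3 and 58.7, adjusted p = 0.583) and Ndufv3 (7.61, 61.3, 18.9 and 42.5 against 31.2, 32.2 and 28.3, adjusted p = 0.781). No other complex I gene passed against sorted GFP.

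No gene of complexes II and III passed against sorted GFP. In complex III the core subunit Uqcrc2 was at 111, 162, 108 and 212 FPKM against 65.4, 65.0 and 83.7 in sorted GFP (adjusted p = 0.0566), with no overlap. Uqcr10 (368, 259.9, 118 and 126 FPKM against 167, 135 and 199), Uqcrb (36.6, 222, 77.9 and 152 against 43.1, 44.0 and 51.4) and the iron-sulfur protein Uqcrfs1 (3.57, 10.7, 6.96 and 34.9 against 15.3, 16.8 and 16.5) all overlapped. In complex II the iron-sulfur subunit Sdhb was at 36.1, 33.6, 28.8 and 25.4 FPKM against 16.5, 15.4 and 18.5, and the membrane anchor Sdhd at 2.43, 1.65, 1.96 and 3.37 against 5.21, 5.89 and 7.45. These 2 genes of the same enzyme lay on opposite sides, each without overlap and without passing (adjusted p = 0.101 and 0.0714). The flavoprotein Sdha (28.2, 65.8, 70.1 and 147 FPKM against 73.0, 90.4 and 84.7) and the anchor Sdhc (65.0, 12.8, 21.4 and 97.7 against 40.8, 27.7 and 46.0) overlapped. In sorted wild-type libraries Sdhb was at 22.9, 18.4 and 32.8 FPKM, which overlapped the laser-captured values (log2 change 0.34), whereas Sdhd did not overlap there.

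The second comparison set the same laser-captured libraries against sorted wild-type microglia, so it joins isolation with the GFP genotype and is not independent of the first. There 13 of 75 members were called higher and 3 lower, or 17.3% and 4.00%, against 12.3% and 19.1% of all 13415 genes tested. The groups did not overlap for 21 members that were higher and 3 that were lower, against 16.9% and 29.6% of all genes. The median log2 change was 0.37 over the members and -0.59 over all genes, and the medians by complex were 1.35 for IV, 0.42 for III, 0.25 for V, 0.22 for I and 0.15 for II. Without laser-captured replicate 4 they were -0.07 for I and -0.05 for II, without replicate 2 the median was 0.09 for III, and without replicate 1 it was 0.08 for V. With sex as a covariate the median was -0.36 for II. As all wild-type libraries were from males, that fit sets the 1 male laser-captured library against them. Of the members called, Cox8a (3.32, adjusted p = 0.000815), Atp5g1 (2.41, adjusted p = 0.00272), Atp5b (2.05, adjusted p = 0.000666), Cox6b1 (1.98, adjusted p = 0.00307) and Atp5o (1.72, adjusted p = 0.00406) rose most on the log2 scale. Cox6a1, Ndufa4, Ndufb8, Ndufb9, Cox7b and Cox7c were also called, with log2 changes of 1.25 to 1.65. Without sorted wild-type replicate 1, 2 or 3 the members higher numbered 5, 5 and 7 and those lower 0, 1 and 0. The shares of all genes called were 6.01% to 6.11% higher and 2.57% to 3.02% lower without 1 of these libraries. The count with sex as a covariate is not given, since 1 library then stands for the laser-captured group. Cox8a, Atp5g1, Atp5b, Cox6b1 and Atp5o kept their call whichever library was left out. Without sorted wild-type replicate 1 each of the other calls was lost, and Ndufb9 was also lost without laser-captured replicate 3 or 4. The members called split into 13 higher and 3 lower here, 23 and 2 after median ratio scaling and 18 and 2 after quantile normalization, while 13.7% and 14.0% of all genes were then called higher and 10.1% and 13.2% lower.

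Uqcrc2 (65.5, 63.2 and 75.4 FPKM in sorted wild-type libraries, log2 change 1.06, adjusted p = 0.0482) and Atp5j (66.1, 73.3 and 66.1 FPKM, log2 change 1.13, adjusted p = 0.0461) passed in this comparison just under the threshold. Each lost its call in 10 of 17 alternative settings, among them leaving out laser-captured replicate 2 or 4 or any 1 of the sorted wild-type replicates, with adjusted p up to 0.193 for Uqcrc2 and 0.172 for Atp5j. Called lower were Ndufa9 (-2.65, adjusted p = 0.00760), Cox7a2l (-2.39, adjusted p = 0.0145) and Sdhd (-1.62, adjusted p = 0.0233). Cox7a2l and Sdhd lost their call without any 1 of the sorted wild-type replicates, and Sdhd also with median ratio scaling (adjusted p = 0.0901). Cox7a2l was at 14.9, 14.7 and 25.3 FPKM and Sdhd at 8.25, 8.33 and 11.0 in sorted wild-type libraries, above every laser-captured value. For both, the sorted GFP libraries lay between the laser-captured and the wild-type range without overlap with either.

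The third comparison asked whether sorted GFP microglia differed from sorted wild-type microglia. No member passed with limma, against 0.0339% higher and 0.0762% lower (0.110% in either direction) of all 11814 genes tested, and at an unadjusted p under 0.05 there were 12 of 75 members (16.0%) against 13.1% of all genes. The groups did not overlap for 2 members that were higher in GFP (Cox7c and Atp5j) and 7 that were lower (Ndufa4, Ndufb5, Sdhd, Uqcr11, Uqcrfs1, Cox7a2l and Atp5e), against 11.5% and 9.29% of all genes. The median log2 change of the members was -0.10, and 26 of 75 were above 0. It turned to 0.04 without sorted wild-type replicate 3 and to 0.02 without sorted GFP replicate 2, and was -0.15 and -0.19 without wild-type replicates 1 and 2 and -0.10 and -0.18 without GFP replicates 1 and 3. With sex as a covariate it was -0.27, with 15 of 75 above 0. As all wild-type libraries were from males, that fit sets the 1 male sorted GFP library against them.

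Sorted wild-type replicate 3 and sorted GFP replicate 2 stood at the ends of the sorted set for the subunit genes as a whole. Sorted wild-type replicate 3 was the highest of the 6 sorted libraries in 49 of 75 members (65.3%) against 33.1% of all genes, and sorted GFP replicate 2 was the lowest in 35 (46.7%) against 20.9%. Against the other 2 libraries of its group, wild-type replicate 3 was above in 69 of 75 members, by a median of 0.39 on the log2 scale, and sorted GFP replicate 3 in 71, by 0.29. Over all genes the medians of these libraries were 0.07 and 0.05. The subunit genes therefore moved together between sorted libraries of the same group by about as much as or more than the groups differed.

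**Figure D4:**
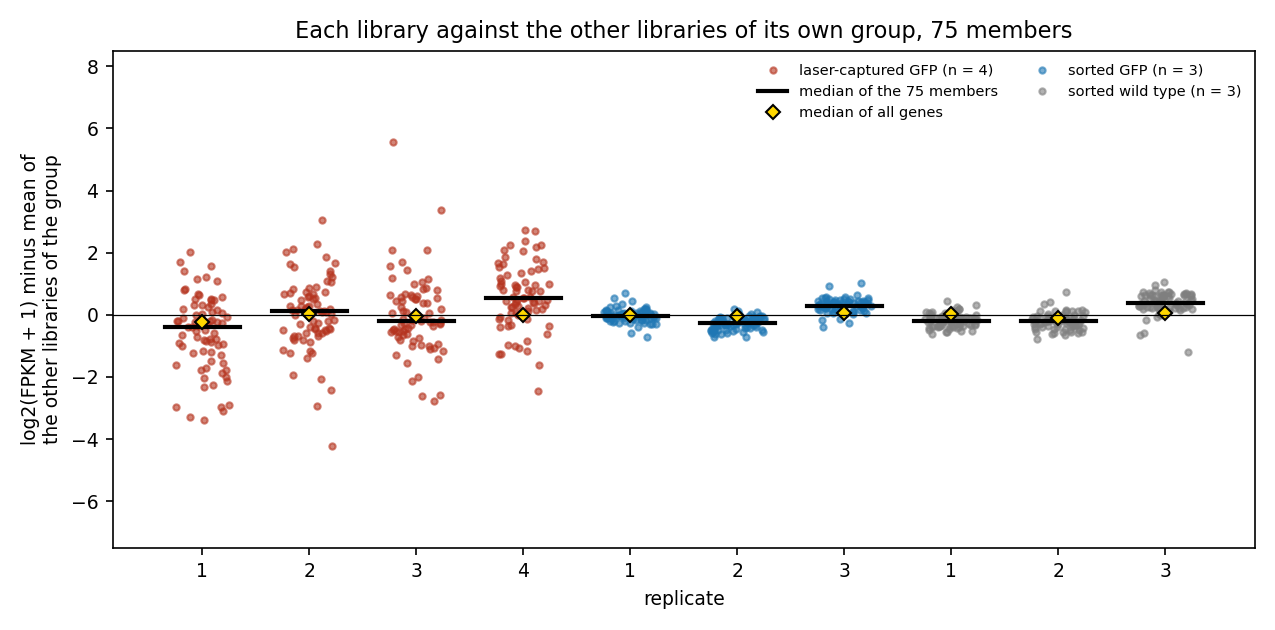
Difference of each library from the mean of the other libraries of its own group (y axis, log2(FPKM + 1)) for 75 members (points), by replicate (x axis), with the median of the members (black bar) and of all genes (yellow diamond). Sorted GFP replicate 3 and sorted wild-type replicate 3 have medians of 0.29 and 0.39, above the all-gene medians of 0.05 and 0.07, and the laser-captured points scatter more widely.

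Between laser-captured libraries the subunit genes varied far more than between sorted ones. The median SD over the members was 0.80 on the log2 scale in laser-captured, 0.22 in sorted GFP and 0.29 in sorted wild-type libraries, against 0.95, 0.14 and 0.18 over all genes. The highest laser-captured library exceeded the lowest by more than 5-fold in 28 of the 75 tested members, not counting Cox6b2, which was at 0 in replicate 2, and by a median of 3.46-fold. In sorted libraries 0 members exceeded 5-fold, and the medians were 1.37-fold and 1.49-fold. Replicate 4 was the highest laser-captured library in 29 members and replicate 1 the lowest in 31. The 10 most abundant genes of the library held 34.4% of all FPKM in laser-captured replicate 1 and 24.5% in replicate 2, against 7.04% and 7.74% in replicates 3 and 4 and 6.67% to 16.7% in sorted libraries. Their part in the members' spread was not tested.

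The order of the members by level was close between the sorted groups. Across the 75 members, Pearson's r of the mean log2 level was 0.981 between sorted GFP and sorted wild type, 0.768 between laser-captured and sorted GFP and 0.731 between laser-captured and sorted wild type. Among single libraries r was 0.661 to 0.771 between laser-captured ones and 0.969 to 0.988 between sorted ones of the same group. These are descriptions across genes, which are not replicates. Atp5b, Atp5h, Atp5k, Uqcr10, Atp5g3 and Cox7c were among the 10 highest members in laser-captured and in sorted GFP libraries, while Ndufa4, Atp5o, Cox6a1 and Cox5a entered that set only in laser-captured libraries and took the place of Atp5l, Atp5a1, Ndufs7 and Ndufc2.

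The members are short transcripts, with a median length of 659 bases against 2210 for all genes tested that have a length in GENCODE M21. Across the 75 members Spearman's rho of the log2 change against sorted GFP and transcript length was -0.29, and across the 11793 other genes it was 0.15. Of these others, 2943 had a length of 451 to 1305 bases, the members' 10th to 90th percentile. Their median log2 change was -0.75, against 0.50 for the members, and 8.66% were called higher and 19.0% lower. The part of length in the members' change was not tested. These are descriptions across genes.

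The letters of the 3 factors were counted by call. Of the 11 members called higher against sorted GFP with a RefSeq window, 4 (Cox6a1, Cox6b1, Cox8a and Atp5o) held any of them, or 36.4%, and of the 51 uncalled members with a window 29 did, or 56.9%. The difference was not tested.

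Related genes were counted by list, to be read against the 12.5% of all genes called higher and 19.6% called lower. Of 28 tested assembly factors 0 were higher and 5 lower against sorted GFP, a share lower near that of all genes, and the median log2 change of -0.62 was close to their -0.60. Among the 5 were Cox17, the copper chaperone of complex IV (27.4, 10.5, 13.2 and 27.0 FPKM against 48.5, 45.9 and 54.5), Ndufaf1 (0.97 to 3.46 against a mean of 11.6), Atpaf2, an assembly factor of the ATP synthase head (0.14 to 2.68 against 7.07 to 8.86), and Bcs1l, which inserts the Rieske protein into complex III (0.46 to 2.16 against 5.03 to 6.52). Of 17 genes of the outer membrane and of protein import 0 were higher and 1 lower, the import channel Timm23 (19.9 to 35.5 FPKM against 74.1 to 86.2).

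Of 14 further subunits and inner membrane carriers, 3 were higher and 0 lower, with a median log2 change of -0.54. Usmg5, a small subunit of ATP synthase, was at 387, 549, 311 and 338 FPKM against 79.3, 67.0 and 90.1 in sorted GFP, and rose by 2.29 on the log2 scale (adjusted p = 0.00105 by limma). The ADP/ATP exchanger Slc25a4 (89.2, 112.0, 132 and 182 FPKM against 34.2, 34.1 and 42.2) and the glycerol phosphate dehydrogenase Gpd2 (25.6 to 50.1 against 8.43 to 9.57) were the others. Ndufab1 was at 27.9, 103, 58.6 and 215 FPKM against 91.3, 76.9 and 94.3 in sorted GFP. Cyc1 was at 1.99, 33.5, 21.3 and 69.0 FPKM against 33.6, 31.0 and 39.5. Neither was called, with log2 changes of -0.16 and -0.83.

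Of 13 regulators of mitochondrial biogenesis 3 were lower, with a median log2 change of -1.09. The coactivator Ppargc1a, which reached the filter's level in no sorted library, was at 5.75, 50.5, 211.0 and 83.6 FPKM in laser-captured libraries and at 0 to 0.34 in all sorted libraries. Tfam, which packages and transcribes mitochondrial DNA, was at 8.44, 0.15, 0.35 and 1.29 FPKM against 14.9, 12.6 and 15.5 in sorted GFP, and Gabpb1, a subunit of GABP, at 2.89 to 6.66 against 13.2 to 14.5. Creb1 was at 6.47 to 22.2 FPKM against 75.5 to 83.7. Against sorted wild type these lists gave the same counts apart from 1 more gene called lower among carriers (Etfa) and 1 among import genes (Timm50).

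The subunits that mitochondrial DNA encodes could not be set beside the nuclear ones. Of 13 such genes 9 had an FPKM of 0 in all 10 libraries, including mt-Co1 and mt-Cytb, which cells with mitochondria transcribe at high levels, so a 0 here is no measure of the transcript. The highest of the rest was mt-Atp6 at 17.1 ± 5.72 FPKM (SD, n = 4) in laser-captured, 9.80 ± 2.17 (SD, n = 3) in sorted GFP and 10.2 ± 3.10 (SD, n = 3) in sorted wild-type libraries, and none of the 3 tested passed.

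The authors' deposited table of comparisons has a line of its own for 77 of the 81 members and a test for 74 of them against sorted GFP. In the authors' deposited table only Cox6b2 passed a q-value under 0.05, with a log2 fold change of 5.22 (q = 0.0384) against sorted GFP and 5.09 (q = 0.0406) against sorted wild type, against 5.13% and 5.01% of all genes tested there. It rests on 2 of the 4 laser-captured libraries, as its values above show. Atp5o and Ndufb8, called here, have no line of their own there, so that table gives no test for them by name. Cox8a, Atp5b and the other members called here that have a line did not pass in the authors' deposited table. It called 0 members between the sorted groups, against 0.321% of all genes tested there.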

How the data were processed

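The deposited table gives FPKM per gene and library, per the file headers. The tools named in the submitters' processing notes are Cufflinks 2.0.2, TopHat2 2.0.4, Bowtie2 2.0.0 and CASAVA 1.8.2, with mouse build mm9. Annotation release, strand setting and the handling of reads with several matches are not given in the sources used here, so members with pseudogene copies and the 26 whose interval overlaps another gene are uncertain. The authors' comparison table gives log2 fold changes with a p-value and a q-value, per the file headers. Low FPKM values were not whole multiples of a step (44.6% to 54.5% within 0.2), so depth is unknown and no counting intervals were computed. Summed FPKM per library was 393949 to 632854, with 11075 to 12500 genes at 1 FPKM or more.

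Each comparison used its 2 groups and genes with at least 1 FPKM in at least 3 libraries. The model was limma 3.58.1 (R 4.3.3, statmod 1.5.0, trend and robust variance) on log2(FPKM + 1), which understates changes of low genes, two-sided, with Benjamini-Hochberg adjustment over all genes tested and a threshold of 0.05, and was tested on simulated data. Members and lists were chosen with earlier results of these data known. Named are members that were called, the 2 most abundant of each complex or subcomplex, isoform sets and the extremes of each complex. From related lists the called genes of highest level are named, with Ndufab1 and Cyc1 beside them as subunits outside the name pattern. Sdhb, Cox6c, Cox5b, Ndufa5 and members not overlapping between sorted groups were chosen after their values were seen. Alternatives were other pseudocounts, filters, scalings and variances, a replicate block, sex, leaving out each library, the authors' table and laser-captured libraries 2 and 4 only. Windows are from RefSeq (GRCm38.p6) and lengths from GENCODE M21. Python 3.11.15, pandas 2.3.3, numpy 2.4.6, scipy 1.17.1 and matplotlib 3.10.9 were used. Some genes covered by the naming rule are not reported here.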

Additional observations from a re-analysis of the deposited data

Results flagged for a closer look

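Some members had 1 laser-captured library far from the other 3, with a gap that exceeds Dixon's critical value at this group size. This was so for 8 of 84 groups of laser-captured values tested. Chance marks about 1 in 20 where values are independent and normally distributed, which was not checked for these FPKM. The complex sums also reuse the members' values, so the 8 are no measure of an excess. In replicate 4, Ndufa1 stood at 95.7 FPKM, Ndufa7 at 71.7, Ndufb2 at 50.1 and Cox7a2l at 6.95, and the complex II sum at 274, each above the other laser-captured libraries. In replicate 1, Atp5j2 stood at 82.3 FPKM and Atp5l2 at 0.138. With the other 3 libraries at 0 for Atp5l2, its mark was fixed in advance. In replicate 3, Cox6b2 stood at 158 FPKM. Of these 8 cases, 5 belong to replicate 4, 2 to replicate 1, 1 to replicate 3 and 0 to replicate 2.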

How the results depend on the processing

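Against sorted GFP, 12 members were higher and 1 lower. The higher count was 24 with median ratio scaling, 23 with quantile normalization, 23 with laser-captured libraries 2 and 4 only (chosen after seeing the data) and 1 in the authors' deposited table, and 5 to 21 when 1 library was left out. All genes called higher were 13.9%, 14.2% and 7.80% in the first 3 of these settings, and those called lower 10.1%, 13.4% and 35.4%. The lower count was 2 with a pseudocount of 5, without the filter, with 1 variance per group and with libraries 2 and 4 only. All genes called lower were 21.9%, 11.7% and 24.7% in the first 3 of these settings. The lower count was 0 in the authors' table, and 0 to 3 when 1 library was left out, against 2.39% to 26.1% of all genes. Against sorted wild type, 13 were higher and 3 lower. Sex as a covariate leaves the 1 male laser-captured library for this comparison, so no count is given for it. The higher count was 23 with median ratio scaling and 23 with libraries 2 and 4 only. All genes called higher were 13.7% and 7.66% in these settings, and those called lower 10.1% and 32.8%. The higher count was 1 in the authors' table and 5 to 19 when 1 library was left out, against 6.01% to 15.3% of all genes. The lower count was 5 without the filter, 0 in the authors' table and 0 to 3 when 1 library was left out. The cause was not tested. With the replicate block the members higher were 7 against sorted GFP and 6 against sorted wild type, and those lower 1 and 2. All genes called higher were then 10.7% and 10.6%, and those called lower 14.4% and 14.2%. Laser-captured replicate 4 has no same-numbered sorted library, so the block removes it from the group difference. Deviations of same-numbered libraries had r of -0.02 to 0.00 against sorted GFP and -0.04 to 0.01 against sorted wild type. Between sorted groups r was 0.08 to 0.26. In these 3 comparisons 1, 0 and 4 of 6 libraries correlated best with their own number. Whether same-numbered libraries share more than a number was not tested.

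No call changed sign. Between sorted groups the counts were 0 in all settings run. Ndufa4, Cox8a, Atp5b, Atp5g1 and Atp5o kept their call against sorted GFP in all 17 alternatives with limma. Median ratio scaling moved the median of all genes from -0.60 to -0.14 and that of the members from 0.50 to 1.03, and quantile normalization moved them to -0.29 and 0.77. Of all called genes 39.0% were higher as deposited, 57.9% with median ratio scaling and 51.6% with quantile normalization. Read depth is unknown, and the 4 laser-captured libraries, with their wide spread, limit what can be called.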
